A study of Mus musculus with 10 samples.

Results

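The 8 genes described here encode the troponins of striated muscle, and they were chosen by symbol from the 23337 genes of the authors' deposited table: the troponin T genes Tnnt1, Tnnt2 and Tnnt3, the troponin I genes Tnni1, Tnni2 and Tnni3, and the troponin C genes Tnnc1 and Tnnc2. All 8 were found. The cells were cardiomyocytes of wild-type mice, isolated by collagenase perfusion and sorted by fluorescence on postnatal day 14, after an injection of adeno-associated virus AAV9 (5e+08 vg/g) on postnatal day 1. The GFP group (5 samples) received AAV9-cTNT-GFP and the dnMKL1 group (5 samples) received AAV9-cTNT-dnMKL1-GFP, which adds a dominant-negative form of MKL1, a coactivator of serum response factor (SRF). All animals of both groups therefore carried a virus, GFP and a cTNT promoter, that of the cardiac troponin T gene, which is active in cardiomyocytes. No group without virus was analysed here, and the labels do not say whether animals were pooled.

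Troponin is the calcium switch of the thin filament. Troponin C binds calcium, troponin I holds the actin-myosin interaction off until calcium arrives, and troponin T anchors the complex to tropomyosin. Each subunit comes in isoforms from separate genes. Tnnt2 and Tnni3 are the cardiac T and I genes, and Tnnc1 serves cardiac and slow skeletal muscle. Tnnt1 and Tnni1 are the slow skeletal genes, and Tnni1 is also the troponin I of the fetal heart, replaced by Tnni3 around birth. Tnnt3, Tnni2 and Tnnc2 are the fast skeletal genes.

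The table holds the authors' comparison, with 1 row per gene, and no values per library were analysed. A gene's base mean is its normalized count averaged over the 10 libraries. Group means given below are implied by the base mean and the log2 fold change, so they carry no SD of their own, and whether libraries of the groups overlap cannot be read from them. The spread between samples enters through the standard error (SE) of the log2 fold change. All 95% intervals are normal intervals from the deposited SE. Positive values mean higher expression in the dnMKL1 group, a direction read from Mkl1 (log2 fold change 9.80, SE 0.15, in the authors' deposited table). Estimated library totals ran from 8803028 to 17123577 counts for the GFP libraries and from 8835136 to 17228616 for those with dnMKL1. Nothing in the labels names a library batch.

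The 3 cardiac troponin genes fell in dnMKL1 cardiomyocytes, the fetal and slow skeletal troponin I gene Tnni1 rose, and the calcium-binding subunit Tnnc1 fell most. Of the 8 genes, the authors' deposited table gives an adjusted p-value for 7, and 4 of these were under 0.05 (DESeq2 Wald test, Benjamini-Hochberg adjustment), 1 higher and 3 lower. The background was high, since 34.1% of the 14056 genes tested were called, 16.6% higher and 17.4% lower. Scaling both groups to the same total count adds 0.29 to every log2 fold change and turns the 2340 higher and 2452 lower genes into 5685 and 927, so that directions here are relative to the authors' scaling. Among the 140 genes whose base mean reached 10000, the class that holds all 3 cardiac troponin genes, 74.3% were called and 70.7% were lower. A count of 3 lower members in that class is thus near its background, and the size of each change says more than the count. In sorted cells measured in bulk, fewer cells of a type and less RNA per cell cannot be told apart.

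**Figure D1:**
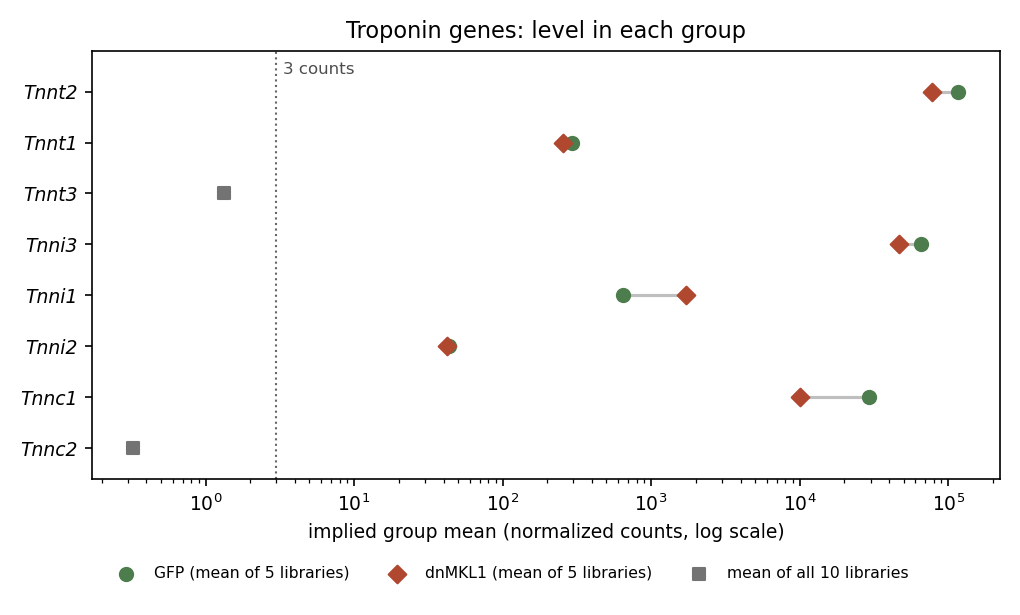
Level of each troponin gene, on a log scale of normalized counts. Circles are GFP means and diamonds dnMKL1 means, both implied by the authors' deposited table, squares are means over all 10 libraries for the genes with too few reads to split by group, and the dotted line marks 3 counts. The 3 cardiac genes lie at the right with their diamonds to the left of the circles, and Tnni1 is the gene whose diamond lies to the right.

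Tnnc1, the calcium sensor of cardiac and slow skeletal troponin (chr14:31208312-31211729, GRCm38), had implied means of 29172 normalized counts with GFP alone and 10047 with dnMKL1. For it the authors' deposited table lists a log2 fold change of -1.54 (SE 0.17), with an adjusted p of 2.5e-18 (DESeq2). Its level in the dnMKL1 group was 34.4% of that in the GFP group, with a 95% interval from 27.5% to 43.2%. Only 1 of the 140 genes in its class of base mean, Actc1, had a lower log2 fold change, and the class median was -0.60. The fall was thus larger than what genes of like abundance showed, and after centring on that class median it was still -0.94 (adjusted p = 2.4e-07, Wald test on the deposited SE with Benjamini-Hochberg adjustment over all genes).

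Tnnt2, cardiac troponin T (chr1:135836315-135852268), had implied means of 117278 normalized counts with GFP alone and 78258 with dnMKL1. The authors' deposited table lists it at a log2 fold change of -0.58 (SE 0.10), with an adjusted p of 2.8e-08 (DESeq2). That is 66.7% of the GFP level, with a 95% interval from 58.5% to 76.1%. The change was next to the median of its class of base mean, with 71 of 140 genes lower still, and centring on the class left 0.012 (adjusted p = 0.949). The table counts whole genes, so that it does not separate the splice forms through which Tnnt2 differs between fetal and adult heart.

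Tnni3, cardiac troponin I (chr7:4518305-4522718), had implied means of 65184 normalized counts with GFP alone and 46524 with dnMKL1. The authors' deposited table lists it at a log2 fold change of -0.49 (SE 0.13), with an adjusted p of 8.1e-04 (DESeq2). The dnMKL1 level was 71.4% of the GFP level, with a 95% interval from 60.0% to 84.9%. As with Tnnt2, the fall was close to that of genes of like abundance, 84 of 140 being lower still, and centring on the class turned it to 0.11, not past the threshold. Scaling both groups to the same total count left Tnni3 at -0.20 (adjusted p = 0.199), so that its call rests on the authors' scaling.

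Tnni1 (chr1:135783033-135810989) had implied means of 647.8 normalized counts with GFP alone and 1713 with dnMKL1. The authors' deposited table lists it at a log2 fold change of 1.40 (SE 0.48), with an adjusted p of 0.0125 (DESeq2). This is a 2.65-fold higher level, with a 95% interval from 1.38-fold to 5.06-fold. Tnni1 stood high among the 1986 genes with base means from 1000 to 10000, of which 1976 had a lower log2 fold change and 14.4% were called higher. Its SE was also large there. The class median SE was 0.096, and only 8 genes of the class had a larger SE than Tnni1, so that its level differed more between libraries of a group than is usual at this depth.

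Large SEs were also found for genes of the atrium. Of 4 atrial markers, Myl7 was listed at a log2 fold change of 0.42 (SE 1.24), Myl4 at 0.37 (SE 0.76) and Sln at 1.43 (SE 1.55) by the authors' deposited table. By DESeq2, 0 of these 3 passed an adjusted p of 0.05, and 0 had an unadjusted p under 0.05. Nppa, the atrial natriuretic peptide, had 1.93 (SE 0.60) and no p-value in the same table by the authors. No atrial marker was at 0, and the summed implied means of the 4 were 2449 normalized counts with GFP alone and 8129 with dnMKL1. Most of that sum was Nppa, at 1935 and 7359, and the other 3 summed to 513.9 and 770.2. All 4 log2 fold changes were above 0, as was that of Tnni1. The 3 with a p-value did not pass 0.05. For Nppa the p-value is missing, not above 0.05, so that no call is made for it. Its log2 fold change over SE was 3.23, but without values per library, how far this rests on particular libraries is unknown. Their part in the rise of Tnni1 was not tested.

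Tnnt1, slow skeletal troponin T (chr7:4504569-4515975), had implied means of 292.7 normalized counts with GFP alone and 253.5 with dnMKL1. The authors' deposited table lists it at a log2 fold change of -0.21 (SE 0.17), with a 95% interval from -0.55 to 0.14 and an adjusted p of 0.399 (DESeq2). The slow T gene thus showed no change past the threshold, and its interval lay wholly below that of the slow I gene Tnni1, which began at 0.47.

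The fast skeletal genes were scarce. Tnni2, fast skeletal troponin I (chr7:142441816-142444410), had implied means of 43.7 and 42.1 normalized counts in the GFP and dnMKL1 groups. The authors' deposited table lists it at a log2 fold change of -0.056 (SE 0.25), with a 95% interval from -0.56 to 0.44 and an adjusted p of 0.905 (DESeq2). Tnnt3, fast skeletal troponin T (chr7:142498771-142516213), had a base mean of 1.33 normalized counts, which is between 8 and 21 reads over the 10 libraries, and the authors' deposited table gives it an adjusted p of 0.405 (DESeq2). Tnnc2, fast skeletal troponin C (chr2:164777161-164779734), had a base mean of 0.327, which matched 4 reads in 4 libraries, 1 in GFP cells and 3 in dnMKL1 cells. No fold is given for Tnnt3 and Tnnc2, whose group means were under 3 counts in both groups, and a difference was not detectable at this depth.

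**Figure D2:**
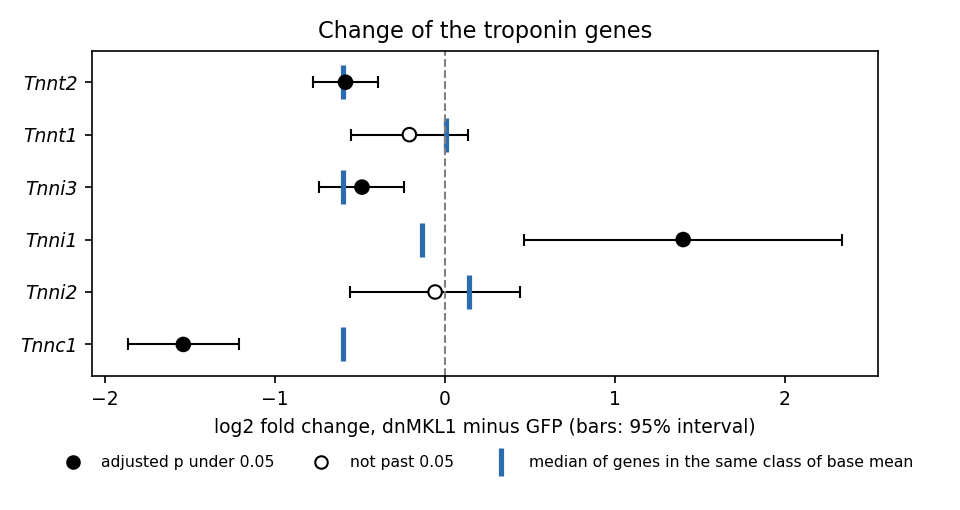
Log2 fold change, dnMKL1 minus GFP, of the 6 troponin genes with enough reads, with 95% intervals from the deposited SE. Filled points passed an adjusted p of 0.05, and blue marks give the median of tested genes in the same class of base mean: Tnnt2 and Tnni3 lie on or near their mark at -0.60, and Tnnc1 and Tnni1 lie away from theirs.

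The reference start regions of the 4 genes that passed the test are shown because MKL1 acts through SRF, whose binding element is the CArG box, and because 3 of these genes fell together. RefSeq promoter windows (GRCm38.p6) matched 6 of the 8 members, all but Tnni2 and Tnnt3. The lines below give the 250 bases before the annotated start, 5′ to 3′ on the gene's strand, with the first of the listed starts for Tnnt2 and Tnni1. An annotated start can lie inside the gene span given above: that of Tnni1 lies 16388 bases into the span, so that its window is wholly internal, that of Tnni3 lies 190 bases and that of Tnnt2 19 bases into it, and the Tnnc1 window lies wholly outside. Capitals mark matches on either strand to GATA, to the M-CAT element CATTCC, to the TATA boxes TATAAA or TATATA, and to the CArG box with up to 1 mismatch.
Tnnc1, chr14:31208062-31208311, plus strand: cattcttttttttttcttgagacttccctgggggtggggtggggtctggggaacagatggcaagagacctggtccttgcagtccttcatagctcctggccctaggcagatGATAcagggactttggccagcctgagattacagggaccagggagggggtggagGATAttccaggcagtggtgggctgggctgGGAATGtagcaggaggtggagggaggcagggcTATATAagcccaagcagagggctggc
Tnnt2, chr1:135836084-135836333, plus strand: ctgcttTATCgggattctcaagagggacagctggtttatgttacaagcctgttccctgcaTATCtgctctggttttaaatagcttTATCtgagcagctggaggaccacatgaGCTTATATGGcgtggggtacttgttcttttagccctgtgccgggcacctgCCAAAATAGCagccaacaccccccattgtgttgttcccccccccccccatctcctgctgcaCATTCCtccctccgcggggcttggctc
Tnni3, chr7:4522529-4522778, minus strand: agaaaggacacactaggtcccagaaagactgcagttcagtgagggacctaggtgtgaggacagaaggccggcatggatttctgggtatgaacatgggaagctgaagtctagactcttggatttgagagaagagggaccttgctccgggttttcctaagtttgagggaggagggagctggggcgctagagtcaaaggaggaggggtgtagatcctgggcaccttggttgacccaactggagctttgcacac
Tnni1, chr1:135799171-135799420, plus strand: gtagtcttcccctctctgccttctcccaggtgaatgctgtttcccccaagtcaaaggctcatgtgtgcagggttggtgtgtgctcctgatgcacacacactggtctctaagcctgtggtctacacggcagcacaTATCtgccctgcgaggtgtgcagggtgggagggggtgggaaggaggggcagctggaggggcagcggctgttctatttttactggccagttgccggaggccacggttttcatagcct

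None of the 8 windows of the 6 members held a full CArG box or a full MEF2 site, which 1.47% and 0.508% of all 32851 promoter windows of this length hold. With up to 1 mismatch, a CArG box matched at 2 places in the Tnnt2 window, GCTTATATGG from 138 to 129 and CCAAAATAGC from 88 to 79 bases before the start, and at 1 place in that of Tnnc2. Such a match is common, at 18.6% of all windows. CATTCC, found in 12.6% of all windows, matched once in Tnnt2 and once in Tnnc1, there on the other strand. Counting the printed window, or the only one, of each gene, GATA, in 53.6% of windows, matched 3 times in Tnnt2, 2 times in Tnnc1, once each in Tnni1 and Tnnt1, and in Tnnc2 at 2 places that overlap. A match to TATATA, in 5.25% of windows, lay 26 to 21 bases before the start of Tnnc1, and one to TATAAA, in 12.4%, lay 30 to 25 bases before that of Tnnt1. The E-box CANNTG, in 66.2% of windows and not capitalized, matched 4 times in Tnnt2, 4 times in Tnni1, and 2 times each in Tnnc1 and Tnnc2. It matched once each in Tnnt1 and Tnni3, and in Tnni3 it was the only match. Tnnc1, Tnnt2 and Tnni3, which fell, thus had only the E-box of this search in common in these windows. The windows of Tnni1, Tnnt1 and Tnnc2 held it too, and the matches are letters, not measured binding.

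Since a scaling common to all genes cancels in a ratio, the balance between isoforms was also compared. The ratio of Tnni1 to Tnni3 was 3.71-fold higher in the dnMKL1 group, with a 95% interval from 1.89-fold to 7.26-fold when the errors of both genes are taken as independent. On the log2 scale the difference was 1.89 (SE 0.49), and with the largest SE that any correlation between the genes allows, 0.61, its interval still ran from 0.70 to 3.08. Tnni1 nonetheless remained a minor form. Per base of the longest annotated transcript, it made up 0.419% of troponin I transcripts in GFP cells and 1.53% in dnMKL1 cells. Per base of coding sequence the shares were 1.11% and 3.99%, since the longest Tnni1 transcript is a non-coding form of 2153 bases against 561 coding bases. Tnni3 supplied 98.8% and 95.9% per coding base, and Tnni2 0.0736% and 0.0963%. Per coding base, the level of Tnni3 was thus 89.2 times that of Tnni1 with GFP alone and 24.1 times with dnMKL1, and the level of Tnni1 was 15.0 times that of Tnni2 with GFP alone and 41.4 times with dnMKL1.

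For troponin T, the difference between Tnnt1 and Tnnt2 was 0.38 on the log2 scale (SE 0.20), with a 95% interval from -0.016 to 0.77 that includes 0. Tnnt2 supplied 99.7% of troponin T transcripts in GFP cells and 99.6% in dnMKL1 cells per coding base. The share of Tnnt1 was 0.287% and 0.372%. For troponin C, the 4 reads of Tnnc2 allow no statement on its share. Tnnt1 itself did not rise, at -0.21 (SE 0.17), and Tnnt2 was lower still, at -0.58 (SE 0.10). The difference between Tnnt1 and Tnnt2 was thus above 0 as an estimate only, and a higher ratio was not established. With each gene centred on the median of its class of base mean, an alternative chosen after seeing the data, this difference turned to -0.23 (95% interval from -0.62 to 0.16), while that between Tnni1 and Tnni3 was 1.43 (0.46 to 2.39). Whether the shifts of troponin I and troponin T differ was not tested.

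Other contractile pairs of the heart gave a comparison. The difference between Acta1, skeletal actin, and Actc1, cardiac actin, was 1.35 (SE 0.27), with a 95% interval from 0.81 to 1.88, while Acta1 alone was at -0.20 (SE 0.23) and not past the threshold. That between Myh7 and Myh6, the slow and fast cardiac myosin heavy chains, was 1.79 (SE 0.91), with an interval from 0.0064 to 3.57 under independent errors and from -0.20 to 3.78 with the largest possible SE. In 3 of these 4 pairs (Tnni1 to Tnni3, Acta1 to Actc1, Myh7 to Myh6) the interval under independent errors was therefore above 0. The SE of Myh7 was 0.90, and the authors' deposited table gives it no p-value. How far the value of Myh7 rests on particular libraries is unknown, and with the largest possible SE its pair included 0. In each of these 3 pairs the first gene lies in the class of base mean from 1000 to 10000 and the second in that from 10000. The median log2 fold changes of these classes were -0.13 and -0.60, so that a difference of this sign is general between them. Class centring was not run for the actin and myosin pairs.

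The 3 cardiac subunits did not fall alike. Tnnc1 fell further than Tnnt2 by 0.95 on the log2 scale (difference -0.95, SE 0.19, 95% interval from -1.33 to -0.58) and further than Tnni3 (difference -1.05, SE 0.21, interval from -1.46 to -0.64). With the largest possible SE these intervals still excluded 0, at -1.47 to -0.44 and -1.63 to -0.48. Tnni3 and Tnnt2 differed by 0.097 (SE 0.16), with an interval from -0.22 to 0.41. Per coding base, the level of Tnni3 was 1.70 times that of Tnnc1 in GFP cells and 3.53 times in dnMKL1 cells, and per base of the longest transcript it was 1.77 and 3.66 times. The order of Tnnt2 and Tnni3 depended on the length used. Tnnt2 was at 1.26 times the GFP level of Tnni3 per coding base and at 0.493 times per base of the longest transcript. For Tnnt2 that transcript is a form of 3330 bases with a retained intron, while its longest protein-coding transcript has 1200 bases. For Tnni3 the longest transcript is protein-coding, with 912 bases.

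**Figure D3:**
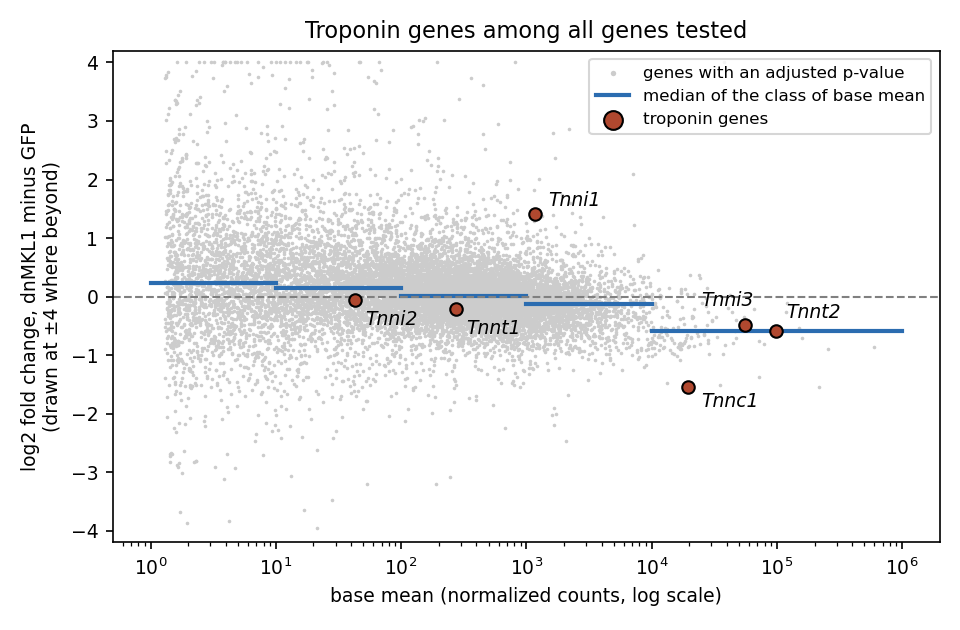
Log2 fold change, dnMKL1 minus GFP, against base mean for the 14056 genes with an adjusted p-value (grey; drawn at the edge where beyond 4), with the median of each class of base mean as a blue line and 6 troponin genes in red. The median falls from 0.23 in the lowest class to -0.60 in the highest, where Tnnt2 and Tnni3 lie close to it, Tnnc1 far below it, and Tnni1 far above the line of its own class.

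Troponin acts together with actin and tropomyosin. Of 15 thin filament partners, 8 were lower and 2 higher at an adjusted p under 0.05 (DESeq2), beside 17.4% lower and 16.6% higher over all genes tested. Most partners are abundant: the class from 1000 to 10000 held 8, of which 5 were lower, beside 40.1% lower and 14.4% higher among all genes of that class, and the class above it held Actc1 and Tpm1, both lower, where 70.7% were. Their median log2 fold change was -0.21, beside 0.021 over all genes tested. Actc1, the actin on which troponin sits in the heart, was at a log2 fold change of -1.55 (SE 0.15) per the authors' deposited table. Tmod4, a tropomodulin that caps the pointed filament end, had -1.31 (SE 0.17) there. Tpm2, the beta tropomyosin, had 2.36 (SE 0.22) in the authors' deposited table, with implied means of 63.7 and 327.5 normalized counts. Tnnc1 and Actc1 differed by 0.015 (SE 0.22), with a 95% interval from -0.42 to 0.45.

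In the thick filament list, which also holds titin and the M-band myomesins, 4 of 10 tested genes were lower and 0 higher, with a median of -0.28, while Myh7 and Mybphl had no p-value. All 4 are among the 7 genes of this list with a base mean of 10000 or higher, and 70.7% of all genes in that class were lower, so that the count is not above its background. The 0 held at an unadjusted p under 0.05 as well, with 5 genes lower there. Myl3, the ventricular essential light chain, was at a log2 fold change of -1.38 (SE 0.12) per the authors' deposited table, and Myh6 and Myom1 each had -0.87 (SE 0.11 and 0.12). The difference between Tnnc1 and Myl3 was -0.16 (SE 0.21), with a 95% interval from -0.57 to 0.24. Myh7 and Mybphl were at 0.92 (SE 0.90) and 1.60 (SE 1.47) in the authors' deposited table.

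**Figure D4:**
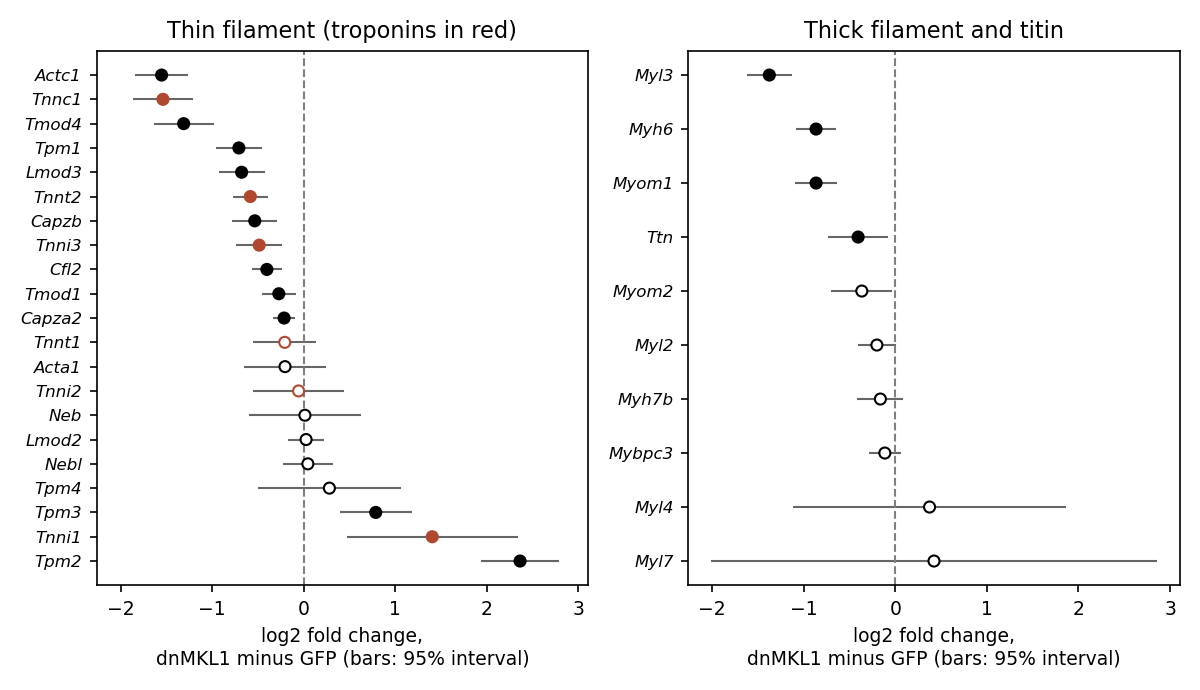
Log2 fold changes, dnMKL1 minus GFP, with 95% intervals, of the thin filament genes (left, troponins in red) and the tested thick filament genes (right). Filled points passed an adjusted p of 0.05: Actc1 and Tnnc1 are the lowest of the left panel, Tpm2 and Tnni1 the highest, and no gene of the right panel is filled above 0.

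Kinases and phosphatases set how troponin responds to calcium. A list of enzymes that act on troponin I or bind it also held Prkar1a, a regulatory subunit, and Pde4d, a phosphodiesterase. Of its 16 tested genes, 1 was higher and 3 lower at an adjusted p under 0.05 (DESeq2), with a median log2 fold change of -0.088. Prkcd, a protein kinase C isoform, was higher at 1.11 (SE 0.23) in the authors' deposited table. Ppp1cb and Ppp1ca, catalytic subunits of protein phosphatase 1, were lower at -0.38 (SE 0.08) and -0.27 (SE 0.07). Tnni3k, a kinase named for its binding to troponin I, was at -0.20 with an SE of 1.05, the largest SE of its class of base mean, and is named for that reason after its value was seen.

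Of 12 transcription factors known from cardiac troponin promoters, 1 was higher and 2 lower at an adjusted p under 0.05 (DESeq2), with a median of -0.011. Srf itself was at -0.80 (SE 0.10), its coactivator Myocd at 0.90 (SE 0.21) and Mef2d, a MADS-box factor, at -0.42 (SE 0.08), all from the authors' deposited table. Of 11 splicing regulators that act on Tnnt2 or other muscle transcripts, 3 were lower and 0 higher, with a median of -0.086, and at an unadjusted p under 0.05 there was 1 higher. The lower ones were Qk at -0.69 (SE 0.15), Rbfox1 at -0.68 (SE 0.17) and Mbnl2 at -0.21 (SE 0.07) in the authors' deposited table. In each of these 3 lists the share of called genes is below the background of 34.1%.

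Troponin genes lie in T and I pairs in the genome: Tnnt1 and Tnni3 are 2329 bases apart on chromosome 7, Tnni1 and Tnnt2 are 25325 bases apart on chromosome 1, and Tnni2 and Tnnt3 are 54360 bases apart on chromosome 7 (RefSeq, GRCm38.p6). Tnni1 rose while Tnnt2 fell. In the pair of Tnni3 and Tnnt1, the former fell and the latter did not pass the test, and a difference between these was not tested. Of the 13 genes next to a troponin gene, 11 were tested, and 3 were higher and 3 lower. That is 54.5% called, beside 34.1% over all genes tested, and the 11 genes allow no reading of the gap. On chromosome 1, Phlda3, before Tnni1, was at a log2 fold change of 1.38 (SE 0.17) per the authors' deposited table. Lad1, between Tnni1 and Tnnt2, had -1.49 (SE 0.37), with a base mean of 42.1. Csrp1, on the far side of Phlda3 from Tnni1 and chosen after its value was seen, was at 1.5 (SE 0.16) per the authors' deposited table. Nisch, next to Tnnc1, was higher at 0.48 (SE 0.12), and Ppp1r12c, next to Tnnt1, at 0.68 (SE 0.24), in the authors' deposited table. Near Tnnt3, Mrpl23 and Prr33 (listed as Gm14492) were lower at -0.54 (SE 0.16) and -0.86 (SE 0.25). The authors' deposited table lists Pkp1 and Syt8 at 0. Not past the threshold there were Lsp1 at -0.026 (SE 0.16), Sema3g at 0.43 (SE 0.38), Ube2c at -0.36 (SE 0.27), Snx21 at -0.27 (SE 0.16) and Dnaaf3 (listed as 6030429G01Rik) at -0.14 (SE 0.24).

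Overlaps limit the counts of some members. In GENCODE M21, Tnnc1 lies within Nisch on the opposite strand with 0 shared exon bases, and Tnni3 shares 86 of its 2063 exon bases with Dnaaf3. Tnnc2 shares 592 of its 800 exon bases with Ube2c, so that its few reads are uncertain. Whether the authors' counting used strand is not given in the sources used here.

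Markers were checked for the cells behind these values. The 6 cardiomyocyte markers, which include Tnnt2, were all abundant, with base means from 10438 to 594986. Of these, 4 were lower and 0 higher by adjusted p (DESeq2), 5 had an unadjusted p under 0.05, and their summed level was 1064380 normalized counts with GFP alone and 642097 with dnMKL1, with Myh6 alone at 768373 and 421599 and the other 5 at 296006 and 220498. All 6 lie in the class from 10000, where 70.7% of genes were lower, so that 4 of 6 is near its background. The smallest p-values belonged to Myh6 at -0.87 (SE 0.11), Tnnt2 at -0.58 (SE 0.10) and Ryr2, the calcium release channel, at -0.78 (SE 0.16), in the authors' deposited table. Fibroblast markers were higher for 3 of 6 and lower for 0 by either p, with sums of 3093 and 4303. Beside this and the lists that follow, 16.6% of all genes tested were higher and 17.4% lower by adjusted p (DESeq2). Lists of this size allow no reading of a gap from these shares. For the other lists, the counts higher and lower were 0 and 0 of 5 (endothelial), 2 and 1 of 6 (mural) and 1 and 0 of 5 (macrophage), and at an unadjusted p under 0.05 these were 0 and 0, 3 and 1, and 1 and 0. The sums were 2117 and 2187 normalized counts for endothelial, 11753 and 7973 for mural and 82.8 and 86.5 for macrophage markers, for GFP and dnMKL1 respectively. The lower mural sum came from Acta2, a smooth muscle actin also expressed in the young heart, at 10454 and 4999 (log2 fold change -1.06, SE 0.25). The other 5 mural markers summed to 1299 and 2974, with Cspg4 at 2.01 (SE 0.18) and Myh11 at 0.73 (SE 0.20) in the authors' deposited table. The fibroblast collagen genes Col1a2, Col1a1 and Col3a1 were at 0.64 (SE 0.14), 0.67 (SE 0.17) and 0.44 (SE 0.15) there. Among macrophage markers Cd68 was at 1.03 (SE 0.39), while C1qa at -0.40 (SE 0.55) and C1qb at -0.21 (SE 0.51) did not pass. The smallest endothelial p-values belonged to Cldn5 at 0.20 (SE 0.34), Kdr at 0.10 (SE 0.29) and Cdh5 at 0.08 (SE 0.33), none past the threshold. None of these 4 lists had a member at 0, and their part in the troponin values was not tested.

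Skeletal muscle markers bear on the slow and fast isoforms. Of 20, 3 were at 0 (the myogenic factors Myog, Myf5 and Myf6), 14 including these had group means at or under 3 counts in both groups, and the adult skeletal myosins Myh1, Myh2 and Myh4 had base means of 0.0928, 0.762 and 0.764. Of 7 tested, 3 were higher and 1 lower at an adjusted p under 0.05 (DESeq2), beside 16.6% higher and 17.4% lower over all genes tested. The higher ones were Mybpc2, Casq1 and Myl1, each known from fast skeletal muscle, at 1.04 (SE 0.12), 1.08 (SE 0.20) and 1.04 (SE 0.19) in the authors' deposited table, with base means of 1016, 1209 and 824.9. The lower one was Cacna1s, the skeletal muscle calcium channel, at -1.44 (SE 0.27), with implied means of 60.4 and 22.3 normalized counts. Not past the threshold were Mylpf at 1.21 (SE 0.58) and Atp2a1 at -0.47 (SE 0.46), each with a base mean under 10. Mybpc1 did not pass either, and no fold is given for it because its group means were under 3 counts in both groups. The tested markers of skeletal muscle thus went in both directions, and fast troponin I, Tnni2, was at -0.056 (SE 0.25). Their part in the values of Tnni1 and Tnni2 was not tested. The summed skeletal markers went from 2064 to 4167 normalized counts. Most of that sum was Casq1 at 777.1 and 1640, Mybpc2 at 664.0 and 1368, and Myl1 at 539.0 and 1111, for GFP and dnMKL1 respectively.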

How the data were processed

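RNA of sorted cardiomyocytes (10 ng per sample, SMART-Seq with 8 PCR cycles and Nextera XT, per the labels' protocols) was sequenced. The tools were CASAVA 1.8, STAR 2.5.3a and featureCounts of Subread 1.5.2, with build mm10, per the submitters' processing notes; annotation and strand setting are not given in the sources used here. The authors' deposited table has the columns of a DESeq2 result, per the file headers: a base mean (a signal in normalized counts), a log2 fold change with its SE, a Wald score, a p-value and an adjusted p-value. The score equalled log2 fold change over SE within 1.14e-05, and Benjamini-Hochberg adjustment over 14056 genes (base mean of 1.31 or more) gave the deposited adjusted p-value within 1.44e-07.

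Computed here (Python 3.11.15, pandas 2.3.3, scipy 1.17.1) were group means implied by the base mean and log2 fold change for 5 libraries in each group, size factors from genes with 1 read in 1 library, differences between genes and class medians of base mean. The adjustment was tested on simulated data. Lengths came from GENCODE M21 and promoters and neighbours from RefSeq, both on GRCm38. Older symbols were matched through RefSeq synonyms. The design planned the authors' test at an adjusted p under 0.05. Named genes were all members, their neighbours, and in each list the 3 smallest p-values and genes with no p-value, with further genes named where a count or sum turned on them. Members and lists were chosen with earlier results of these data known. Without values per library, no gene was ranked as most alike in pattern. Nothing says that replicates came from separate animals beyond the term biological replicate, and reads carry no molecular identifiers.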

Additional observations from a re-analysis of the deposited data

How the results depend on the processing

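The 4 called troponin genes became 2 (Tnni1 and Tnnc1) when each log2 fold change was centred on the median of its class of base mean. That centring reversed Tnnt2 to 0.012 and Tnni3 to 0.11, neither past the threshold, because the class median of -0.60 is subtracted. Total-count scaling, which adds 0.29 to every log2 fold change, left 3 called (without Tnni3) and reversed Tnnt1 to 0.081 and Tnni2 to 0.23, neither past the threshold. Over all genes it moved the calls from 2340 higher and 2452 lower to 5685 and 927. A threshold of 0.01 left 3 (without Tnni1, adjusted p = 0.0125), a floor of 0.5 on the absolute log2 fold change left 3 (without Tnni3) and 2735 of 4792 among all genes, and the other alternatives (threshold of 0.1, adjustment over all p-values, median centring, base mean of at least 10 or 100) left 4. Tnnc1 kept its direction and call under all 9 alternatives, from -1.54 to -0.94.

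The share of Tnni1 in troponin I, 0.419% and 1.53% in the GFP and dnMKL1 groups per longest transcript, was 0.983% and 3.55% without division by length and 1.11% and 3.99% per coding base, an alternative chosen after seeing the data. That of Tnnt1 in troponin T, 0.779% and 1.01%, became 0.249% and 0.323%, and 0.287% and 0.372%. Setting group means at or under 3 counts to 3 left the isoform balances of Tnni1 and Tnnt1 at 1.89 and 0.38 (log2 difference from Tnni3 and Tnnt2), class centring, added after seeing the data, moved them to 1.43 and -0.23, and Tnnc2 was left out for too few reads. No paired analysis was possible because no value per library was analysed here. Fits without 1 library and the edgeR test were not run for the same reason, so that whether 1 library decides the value of Tnni1 is unknown.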
